A study of Sus scrofa with 23 samples.

Results

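The cell cycle and proliferation genes are a set of 52 named genes for cyclins, their kinases, the DNA replication machinery and the mitotic apparatus, here followed in the prefrontal cortex of pigs. They were chosen by name, as the rows of the deposited gene table whose pig Ensembl symbol is one of the 52, and 46 of them had a row among 25880 rows in all. CCNA2, GINS2, PCNA, AURKA, MKI67 and RRM2 had no row under their symbol. Of the 46, 43 had 10 or more counts in at least 5 of the 23 libraries. 40 passed the filter on low counts used for testing, and 6 (BUB1, CCNB1, CCNB2, CDC6, CDK1 and KIF11) did not.

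The animals were adolescent female slaughter pigs of about 20 kg, awake when injected. Each received a single intravenous injection of either psilocybin, a serotonergic psychedelic, at 0.08 mg per kg or saline, and was killed 1 day or 1 week later. The 4 groups were psilocybin 1 day (6 animals), saline 1 day (5 animals), psilocybin 1 week (6 animals) and saline 1 week (6 animals). No group carried any other agent or allele, and each library came from the poly-A RNA of a whole piece of cortex of 1 animal. The labels divide the libraries into 2 batches, 11 libraries in batch 1 and 12 in batch 2, with every group present in both; what the batch stands for is not given. Libraries held 9504421 to 18654626 counts. Defining markers of cortex were present, with SNAP25 and SLC17A7 of neurons at 1110 and 369 RPKM (reads scaled by exon length and library total) and MBP of oligodendrocytes at 686 RPKM. On the first principal component of all 25880 rows, computed after the batch means were removed and holding 15.6% of the variance, 3 libraries lay apart from the rest, at 33.9 to 44.4 against -23.9 to 23.2 for the other 20. These were 1 animal each of psilocybin 1 week, saline 1 day and saline 1 week, and each comparison was also made without them.

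A cell enters division when growth signals raise D-type cyclins, which pair with CDK4 and CDK6 and release the E2F transcription factors that switch on S-phase genes. Replication origins are then loaded with the MCM helicase by CDC6, opened with CDC45 and GINS, and copied with the RFC-loaded PCNA clamp. In mitosis, condensins compact the chromosomes, kinetochore proteins such as CENPE and CENPF attach them to the spindle, and the BUB checkpoint holds the anaphase-promoting complex until attachment is complete. In postnatal cortex most neurons have left the cycle, and the dividing cells are mainly oligodendrocyte precursors, microglia and endothelial cells. In bulk tissue, fewer cells of a type and less RNA per cell cannot be told apart.

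The level of these genes per exon length spanned a wide range. CCND2, a D-type cyclin, was the highest at 47.5 RPKM on average over the 23 animals, and it alone made up 30.7% of the summed CPM (counts scaled to a common library total) of the 46 genes. After it came CDK2 (21.2 RPKM), CCND3 (17.1 RPKM), RRM1 (14.6 RPKM), CDC45 (12.1 RPKM), MCM7 (11.4 RPKM), CDK4 (11.1 RPKM), BUB3 (10.3 RPKM), MCM6 (8.08 RPKM) and NUSAP1 (7.44 RPKM). 8 of the 46 averaged 10 RPKM or more and 23 averaged under 1 RPKM. The lowest of those tested were NCAPH, a condensin subunit (0.149 RPKM), CENPF (0.188 RPKM) and CENPE (0.191 RPKM). The mitotic kinase CDK1 averaged 0.0723 RPKM, and its level ran between 0 and 17 counts in a library.

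Levels within one complex were unequal. Among the 6 MCM subunits, which form a hexamer, MCM7 and MCM6 averaged 11.4 and 8.08 RPKM, MCM5 averaged 3.04 RPKM, and MCM2, MCM4 and MCM3 averaged 0.716, 0.652 and 0.611 RPKM. The MCM7 and MCM4 rows share 22.4% and 11.4% of their exon bases with other rows, so their levels may include reads of neighbouring genes. Among the GINS subunits GINS1 averaged 0.865 RPKM, GINS3 0.654 RPKM and GINS4 0.378 RPKM. RRM1, the large subunit of ribonucleotide reductase, averaged 14.6 RPKM. The row at the position of RRM2, the S-phase subunit of the same enzyme, averaged 0.459 RPKM. The spindle checkpoint protein BUB3 averaged 10.3 RPKM, against 0.287 RPKM for its partner BUB1B and 0.0574 RPKM for BUB1.

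**Figure D1:**
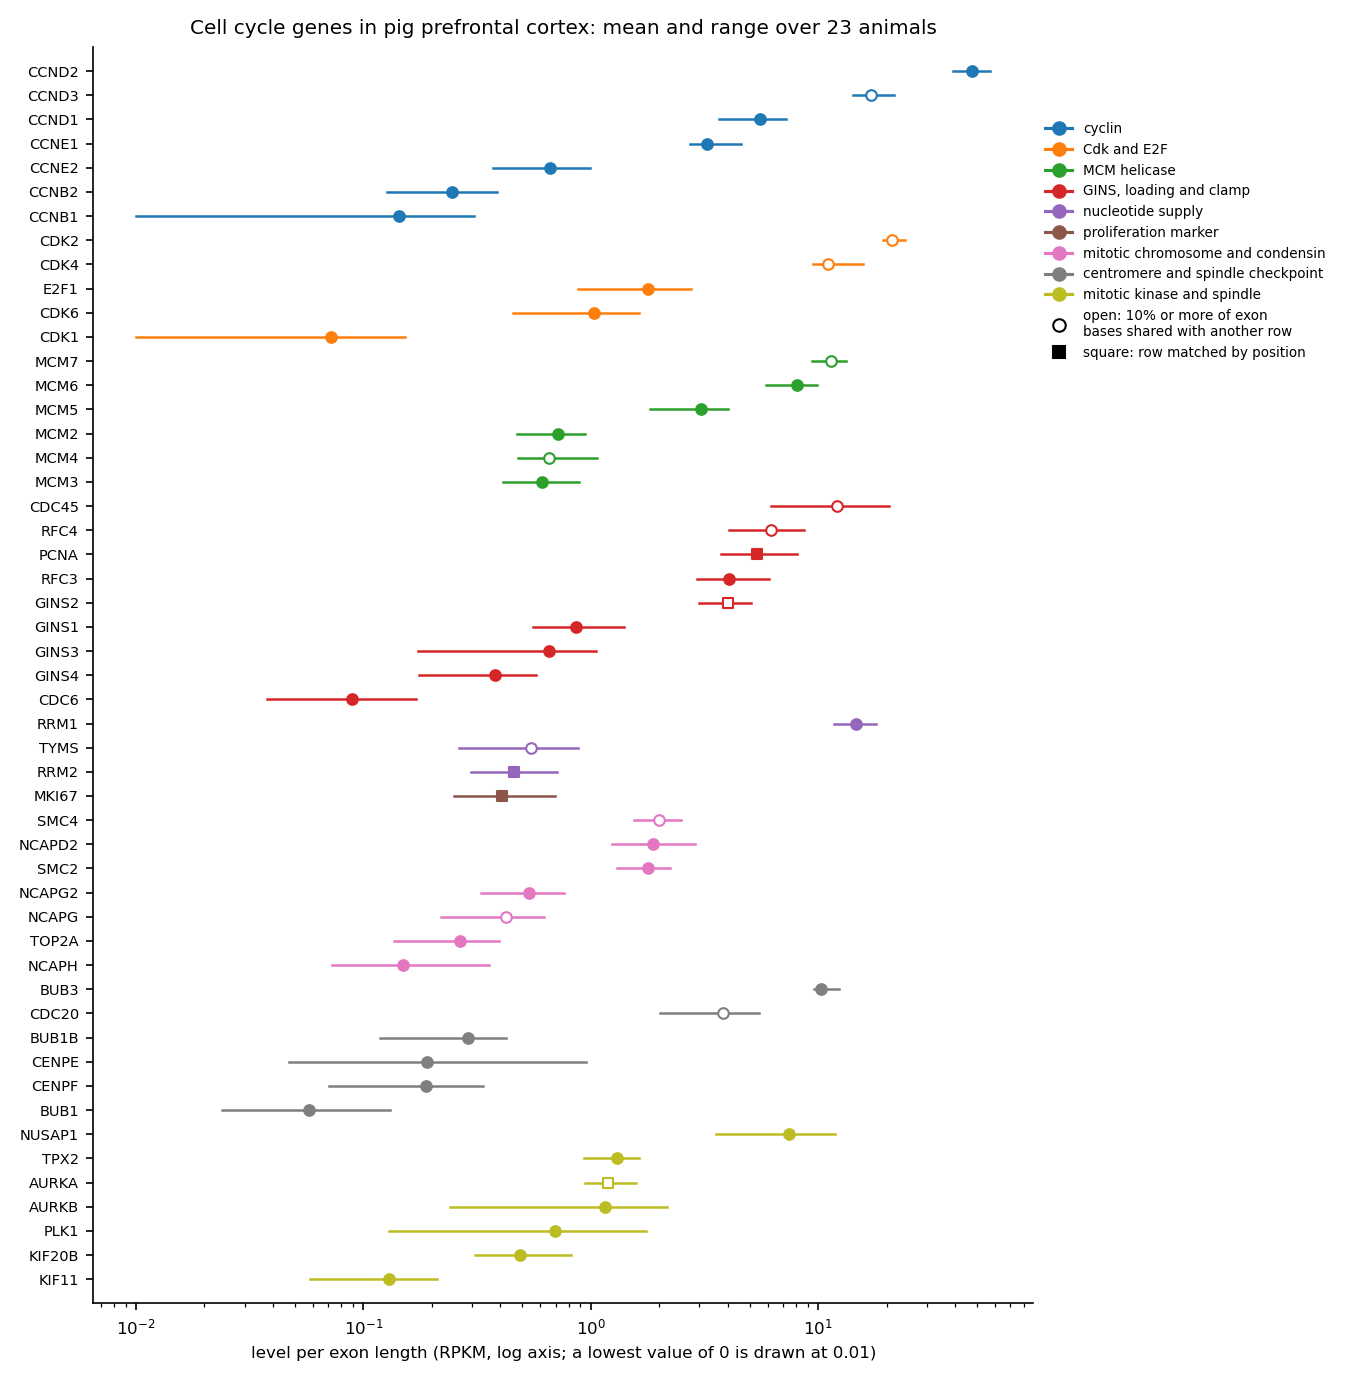
Mean level per exon length of each cell cycle gene over 23 animals (points; horizontal lines run from the lowest to the highest animal), on a log axis in RPKM, ordered by role; open symbols share 10% or more of their exon bases with another row and squares were matched by position. CCND2 lies highest at 47.5 RPKM, and CDK1, CDC6 and BUB1 lie under 0.1 RPKM.

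Several of the high levels belonged to rows that share exons with a neighbouring gene. The authors' counting did not use strand and split a read between the rows it overlapped, so such a row carries reads of its neighbour. 16 of the 46 rows shared exon bases with another row, 11 of them 10% or more, and those 11 made up 41.5% of the summed CPM of the set. 6 of the 10 highest by RPKM were among the 16. The CDK2 row shared 69.8% of its exon bases with a row that lies at RAB5B, a gene of endosome trafficking, on the same strand. Over animals, with group and batch means removed, the CDK2 row followed the RAB5B row with Pearson's r = 0.994 and Spearman's rho = 0.977 (n = 23, permutation p = 1e-05 for each, the smallest that 100000 resamples can give, adjusted p = 3e-05). A second row without a symbol lies at the RefSeq position of CDK2, averaged 3.16 CPM, and ran the other way (r = -0.552, rho = -0.606, permutation p = 0.00643 and 0.0026, adjusted p = 0.0129 and 0.00624). The row of CDC20, an activator of the anaphase-promoting complex, shared 80.6% of its exon bases with ELOVL1, a fatty acid elongase, on the opposite strand. It followed ELOVL1 with r = 0.988 and rho = 0.967 (permutation p = 1e-05 for each, adjusted p = 3e-05). Rows that share reads can vary together through the counting alone, so p-values between such rows do not test a relation between separate genes.

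In all, 12 relations between a row and the row it shared exons with were computed. CDK4 followed TSPAN31 (28.6% of exon bases shared, r = 0.903, rho = 0.859) and MCM7 followed COPS6 (14.9% shared, r = 0.849, rho = 0.865), each with permutation p = 1e-05 and adjusted p = 3e-05. Without the 2 animals farthest from the median of the neighbour, r was 0.991 for CDK2, 0.979 for CDC20, 0.837 for CDK4 and 0.787 for MCM7. Within batch 2 the 4 values were 0.994, 0.985, 0.898 and 0.857, and within batch 1 they were 0.991, 0.982, 0.919 and 0.837. RFC4 followed EIF4A2 in batch 2 only (r = 0.742 in batch 2 and -0.312 in batch 1), and the pooled r of 0.635 (rho = 0.388, permutation p = 0.0012 and 0.0692, adjusted p = 0.00288 and 0.0923) came down to 0.396 without the 2 farthest animals. CCND3 followed BYSL with r = 0.505 (rho = 0.413, permutation p = 0.0136 and 0.0511, adjusted p = 0.0233 and 0.0767), and with 0.326 without the 2 farthest animals. NCAPG with LCORL and SMC4 with TRIM59 passed by rho (0.498 and 0.493, permutation adjusted p = 0.0301 for each) and not by r (0.371 and 0.383, adjusted p = 0.107 and 0.106). TYMS, CDC45 and MCM4 passed by neither with the neighbour they share exons with. The CDC45 row also has 7.52% of its exon bases within the RefSeq span of CLDN5, a gene of endothelial cells. CLDN5 has no row under its symbol, so its part in the CDC45 counts was not tested. Because of this sharing, values given below for CDK2 and CDC20 are values of the shared rows. Those of the other rows that share exons, among them CDK4, MCM7, RFC4 and CDC45, may also hold reads of a neighbour.

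The most used marker of dividing cells, MKI67, has no row under its symbol, but a row without a symbol (ENSSSCG00000026302) covers the whole RefSeq span of MKI67 on chromosome 14 of build Sscrofa11.1, from 137265908 to 137296312. It is called the MKI67 row here and is not counted among the 46. 4 more rows lie at the RefSeq positions of PCNA, RRM2, AURKA and GINS2, of which the PCNA row also covers CDS2 and the AURKA and GINS2 rows share exons with neighbours. No such row was found for CCNA2. The MKI67 row averaged 5.10 CPM and 0.405 RPKM, with 36 to 107 counts in a library.

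At 1 day after injection no cell cycle gene differed between psilocybin and saline past the threshold. None of the 40 tested passed an adjusted p of 0.05 in edgeR's quasi-likelihood test with Benjamini-Hochberg adjustment over 15049 genes (0% of all genes passed), and none passed with DESeq2 or limma-voom. At an unadjusted p under 0.05 lay 1 of the 40, against 2.83% of all genes in both directions and 1.57% in the lower direction. That gene was RFC4, a subunit of the clamp loader, with 13.4, 16.3 and 22.9 CPM as the lowest, median and highest value after psilocybin and 15, 15.7, 19.6, 23 and 24.3 CPM after saline. Its log2 fold change was -0.28 ± 0.13 (SE, edgeR adjusted p = 1), and the groups overlapped. The value was -0.13 without the saline 1 day animal that lay apart, and -0.39 within batch 2 and -0.13 within batch 1. The count of 1 ran from 0 to 4 when single animals were left out. CENPF and CENPE had the next smallest p, with log2 fold changes of -0.46 ± 0.22 and 1.13 ± 0.60. The 40 genes had a median log2 fold change of 0.012, against 0.004 for all genes, with 22 above 0 (51.4% of all genes were above 0) and 18 below 0.

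The D-type cyclins and CDK4 carry the growth signal. CCND2 had a log2 fold change of -0.12 at 1 day (95% interval -0.27 to 0.02) and of -0.02 at 1 week (-0.15 to 0.12). CCND1 had 0.03 at 1 day (-0.28 to 0.34) and 0.10 at 1 week (-0.20 to 0.39). For CDK4 the values were -0.07 at 1 day (-0.32 to 0.17) and -0.02 at 1 week (-0.26 to 0.21). MCM2, a subunit of the replicative helicase, had 0.30 at 1 day (-0.07 to 0.67) and 0.24 at 1 week (-0.12 to 0.60). For KIF20B, a kinesin of cytokinesis, they were 0.02 at 1 day (-0.50 to 0.53) and -0.04 at 1 week (-0.52 to 0.43). The PCNA row, at the position of the replication clamp, had -0.20 at 1 day (-0.51 to 0.12) and -0.04 at 1 week (-0.34 to 0.26).

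At 1 week none of the 40 passed the adjusted threshold either (0% of all genes passed in edgeR, and none with DESeq2 or limma-voom), but 5 lay at an unadjusted p under 0.05, all higher after psilocybin. That is 12.5% of the 40, against 1.99% of all genes in both directions and 1.2% in the higher direction. The members were chosen with earlier results of these data known. This share and the ranks given below are therefore descriptions and no independent support. The count was 3 without the psilocybin 1 week animal that was highest for CENPF, in batch 2 alone, and with limma-voom. Of the 23 animals, that one was also highest for CENPE and the MKI67 row (8.77 CPM each) and for NCAPH (2.55 CPM). The 5 were CENPF, NCAPG2, GINS3, CENPE and NUSAP1, and 4 of them act in mitosis. Of the 40, the mitotic chromosome, centromere and spindle groups hold 7, 5 and 5 genes. The 40 as a whole were not shifted, with 20 above 0 (48.8% of all genes were above 0) and 20 below 0 and a median log2 fold change of 0.016, against -0.003 for all genes.

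CENPF encodes a large kinetochore protein made in G2 and mitosis (ENSSSCG00000015581, chromosome 9, 128949182 to 129008793). Its lowest, median and highest level was 2.09, 2.59 and 3.06 CPM in the 6 animals 1 week after psilocybin, against 1.04, 1.53 and 2.14 CPM in the 6 saline animals of that time. A single saline animal, at 2.14 CPM, lay above the lowest psilocybin animal, and the other 5 lay below all 6. The log2 fold change was 0.72 ± 0.20 (edgeR adjusted p = 1), which ranked 2 of 15049 genes by p. It was 0.49 ± 0.27 within batch 2 and 0.96 ± 0.34 within batch 1. These values rest on 21 to 34 counts in a psilocybin library and 12 to 30 in a saline library.

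NCAPG2 is a subunit of condensin II (ENSSSCG00000028169, chromosome 18, 653259 to 717200). Its lowest, median and highest level was 3.53, 4.38 and 5.2 CPM after psilocybin and 2.74, 3.16 and 3.81 CPM after saline at 1 week, and only the highest saline animal reached into the psilocybin range. The log2 fold change was 0.44 ± 0.15 (edgeR adjusted p = 1, rank 16 of 15049). GINS3, a subunit of the replicative helicase complex (ENSSSCG00000002802, chromosome 6, 20162537 to 20171485), had 1.67, 2.54 and 3.08 CPM after psilocybin and 0.584, 1.54 and 2.34 CPM after saline. Its log2 fold change was 0.74 ± 0.25 (edgeR adjusted p = 1, rank 19 of 15049). It was the saline animals of 1 week that stood low for GINS3. The other groups averaged 2.46 ± 0.37 CPM (psilocybin 1 day, SD, n = 6), 2.45 ± 0.48 CPM (psilocybin 1 week, n = 6) and 2.47 ± 0.69 CPM (saline 1 day, n = 5), against 1.5 ± 0.62 CPM in saline 1 week (n = 6).

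CENPE, the kinetochore motor that moves chromosomes to the spindle equator, was far higher in 2 animals than in the rest. A psilocybin 1 week animal of batch 1 had 8.77 CPM and a psilocybin 1 day animal of batch 2 had 7.54 CPM, while the other 21 animals lay between 0.434 and 2.13 CPM. The log2 fold change at 1 week was 1.33 ± 0.58 (edgeR adjusted p = 1) with the animal at 8.77 CPM and 0.37 ± 0.46 without it, and within batch 2, to which that animal does not belong, it was -0.12. At 1 day the log2 fold change was 1.13 ± 0.60 with the animal at 7.54 CPM and 0.22 ± 0.52 without it. NUSAP1, a spindle-binding protein, had 20.3, 41.7 and 54.9 CPM after psilocybin and 22.5, 30.5 and 43.6 CPM after saline at 1 week (log2 fold change 0.33 ± 0.15, edgeR adjusted p = 1). NUSAP1 was also the member with the largest difference between batches, described below.

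**Figure D2:**
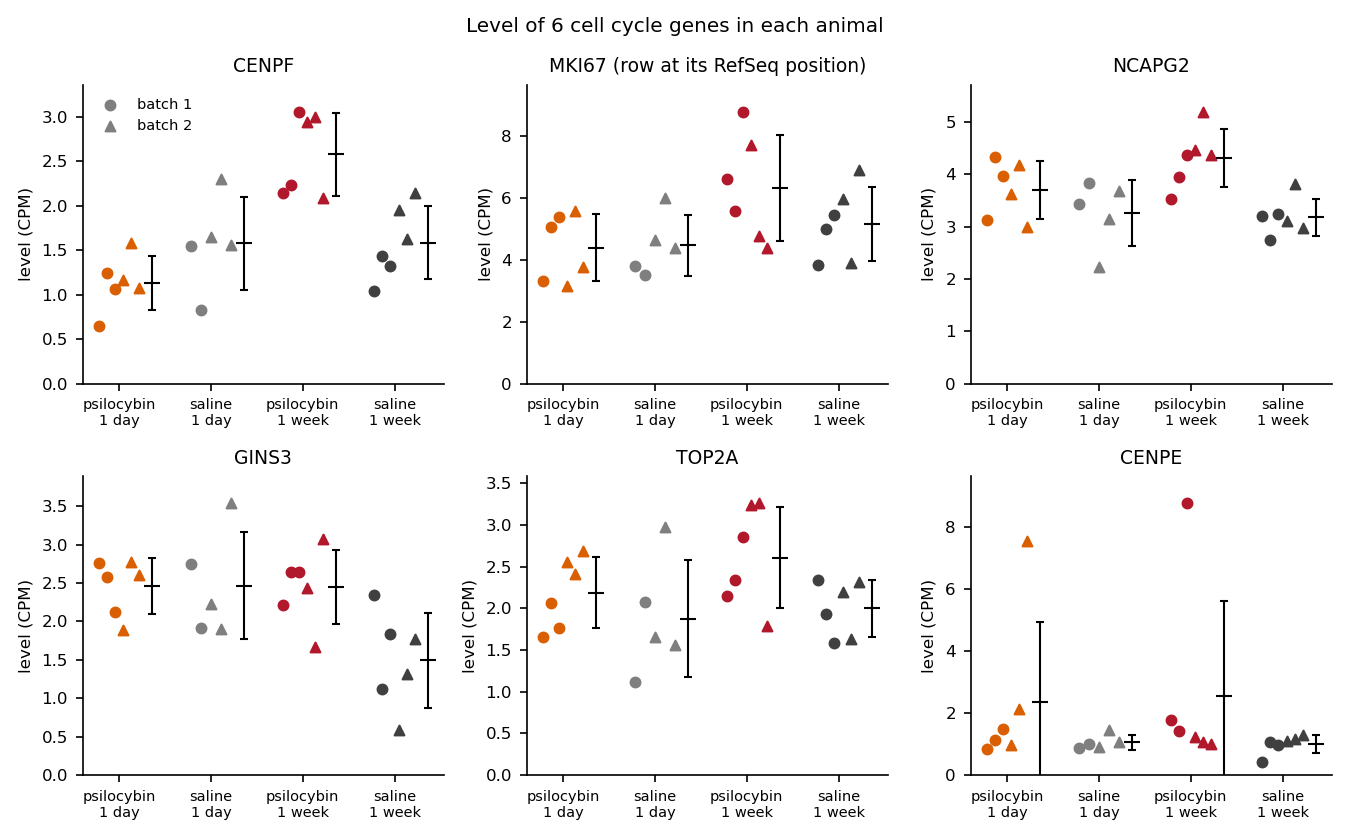
Level in CPM of 6 genes in each animal by group, batch 1 as circles and batch 2 as triangles, with the group mean and SD at the right of each group (SD bars stop at 0). All 6 psilocybin 1 week animals have 2.09 CPM or more of CENPF and all 6 psilocybin 1 day animals have 1.58 CPM or less; 2 animals carry the difference in CENPE.

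A pair of further mitotic markers are given because they are the usual readouts. TOP2A, the topoisomerase that untangles chromosomes, had 1.79, 2.6 and 3.26 CPM after psilocybin and 1.58, 2.07 and 2.34 CPM after saline at 1 week, with a log2 fold change of 0.38 (95% interval -0.05 to 0.80). The MKI67 row had 4.38, 6.09 and 8.77 CPM after psilocybin and 3.82, 5.21 and 6.88 CPM after saline, with a log2 fold change of 0.29 (-0.12 to 0.70). Both intervals include 0. The GINS2 row had a log2 fold change of -0.22 ± 0.10 (edgeR adjusted p = 1), opposite in sign to GINS3 of the same complex, and it shares 11.9% of its exon bases with GSE1.

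By role, the sign of the differences at 1 week was mixed. In the mitotic chromosome and condensin group 4 of 7 tested genes were above 0 (median log2 fold change 0.21), and in the centromere and checkpoint group 3 of 5 (0.26). 4 of the 5 tested spindle and mitotic kinase genes were above 0 (0.11), as were 4 of the 6 MCM subunits (0.07). Of the 5 tested cyclins 4 were below 0 (-0.06), and of the 4 tested Cdk and E2F genes 3 were below 0 (-0.01). The signs by role were much the same at 1 day. There 4 of 7 mitotic chromosome (0.18), 4 of 5 centromere (0.14) and 4 of 5 spindle genes (0.08) were above 0. So were 3 of 6 MCM subunits (0.01), while 4 of 5 cyclins (-0.03) and 2 of 4 Cdk and E2F genes (-0.02) were below 0.

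**Figure D3:**
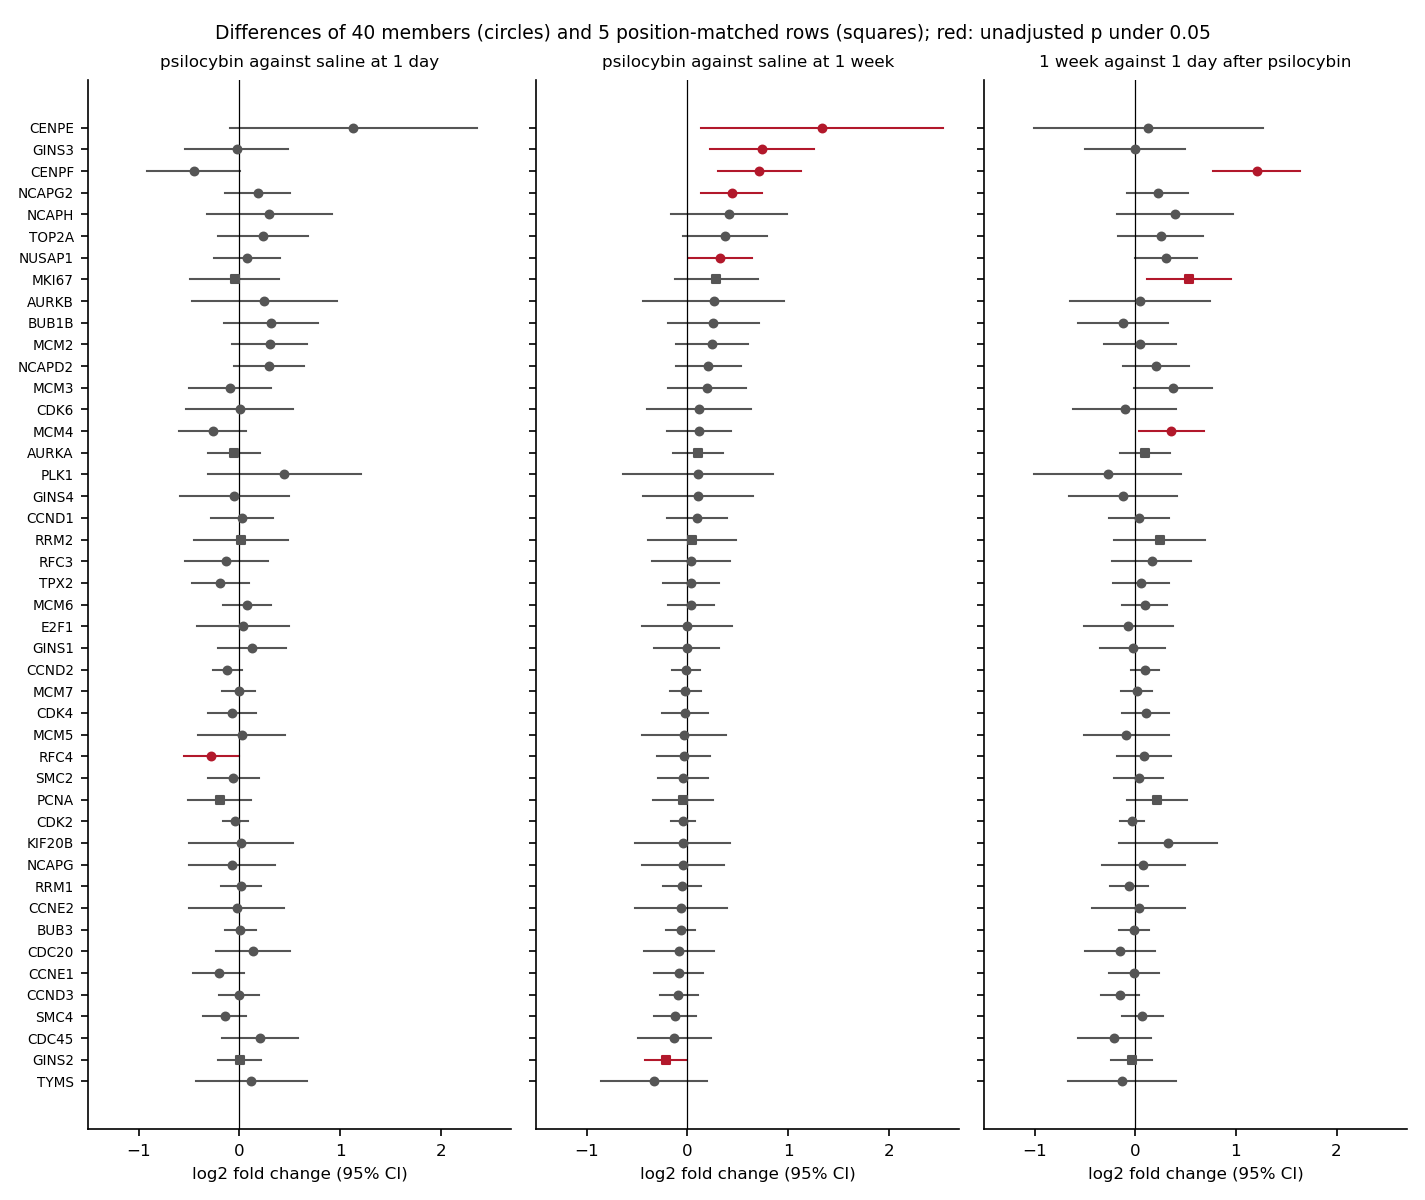
Log2 fold change with 95% confidence interval of 40 tested genes (circles) and 5 rows matched by position (squares) in 3 comparisons, ordered by the value at 1 week; red marks an unadjusted p under 0.05. At 1 week 5 of the 40 are red, all above 0, at 1 day 1 is, below 0, and in the third panel CENPF stands at 1.21.

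Whether the psilocybin difference itself changed between the times was tested as the 1 week difference minus the 1 day difference. No gene passed the adjusted threshold with edgeR (0% of 15049), DESeq2 or limma-voom. 2 of the 40 lay at an unadjusted p under 0.05, both above 0, against 2.02% of all genes in both directions and 1.11% above 0. CENPF ranked 1 of 15049 genes by p, with a difference of 1.17 ± 0.30 on the log2 scale (edgeR adjusted p = 1), and GINS3 followed with 0.77 ± 0.35. The third was MCM4, a helicase subunit, with 0.38 ± 0.22. The median over the 40 was 0.020, against 0.001 for all genes.

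Between 1 week and 1 day after psilocybin, CENPF had the smallest p of all 15049 genes. This comparison uses the same psilocybin 1 week animals as the 1 week comparison and the change between the times. The CENPF results of these comparisons are therefore not independent. Its levels were 2.09, 2.59 and 3.06 CPM (lowest, median, highest) at 1 week and 0.645, 1.12 and 1.58 CPM at 1 day, so the groups did not overlap. Of all genes 0.0664% had groups that did not overlap in this comparison, and CENPF was the 1 member among them. The log2 fold change was 1.21 ± 0.21 (95% interval 0.78 to 1.64). The edgeR adjusted p was 0.0917, above the threshold, so 0% of all genes and 0 of the 40 passed. With DESeq2 the adjusted p of CENPF was 0.0192, and without the psilocybin 1 week animal that lay apart it was 0.0333 in edgeR. With limma-voom the adjusted p was 0.145, and with the 2 groups alone in edgeR it was 0.737. Within batch 2 the log2 fold change was 1.06 ± 0.28 and within batch 1 it was 1.33 ± 0.36.

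2 of the 40 lay at an unadjusted p under 0.05 in that comparison, both higher at 1 week, against 3.18% of all genes in both directions and 1.53% in the higher direction. The second was MCM4, at 0.36 ± 0.16 (edgeR adjusted p = 0.999), and NUSAP1 followed at 0.31 ± 0.15. The MKI67 row averaged 6.3 ± 1.72 CPM at 1 week and 4.38 ± 1.08 CPM at 1 day after psilocybin (SD, n = 6 each), a log2 fold change of 0.54 ± 0.20 (edgeR adjusted p = 0.999). All 7 tested genes of the mitotic chromosome and condensin group were above 0, with values of 0.03 to 0.39, but none of the 7 lay at an unadjusted p under 0.05. Between the same times after saline 6 of these 7 were above 0 as well, with a median of 0.05 against 0.21 after psilocybin. Of the 40, 24 were above 0 after psilocybin, against 54.3% of all genes, with a median of 0.040 against 0.012.

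Between 1 week and 1 day after saline no gene passed in edgeR (0% of all genes). 1 of the 40 lay at an unadjusted p under 0.05, against 2.01% of all genes in both directions and 0.857% in the lower direction. It was GINS3, at -0.77 ± 0.26 (edgeR adjusted p = 1). That value uses the same low saline 1 week animals as the GINS3 difference between psilocybin and saline, so the comparisons share samples. Within batch 2 the log2 fold change of GINS3 was -1.12 ± 0.40 and within batch 1 it was -0.42 ± 0.35. NCAPD2 and KIF20B came next, at 0.29 ± 0.17 and 0.39 ± 0.24. CENPF averaged 1.58 ± 0.41 CPM at 1 week (SD, n = 6) and 1.58 ± 0.52 CPM at 1 day (n = 5) after saline, with a log2 fold change of 0.04 (-0.41 to 0.48). The MKI67 row was higher at 1 week after saline too, at 5.16 ± 1.19 CPM against 4.46 ± 0.97 CPM at 1 day.

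Levels of cell type markers are set beside these differences. The 12 tested oligodendrocyte precursor markers summed to 690.9 to 775.7 CPM 1 week after psilocybin and to 652 to 831.3 CPM 1 week after saline, and 7 of the 12 were higher after psilocybin. The 12 tested microglial markers summed to 254.9 to 445 CPM after psilocybin and to 275.9 to 391.2 CPM after saline at that time, with 10 of the 12 higher. The 8 tested mature oligodendrocyte markers summed to 6868 to 9724 CPM after psilocybin and to 5356 to 14080 CPM after saline, and all 8 were lower after psilocybin, with a median log2 fold change of -0.21. The 9 tested endothelial and mural markers summed to 281.3 to 337.7 CPM after psilocybin and to 257.4 to 402.2 CPM after saline, with 4 of the 9 higher. Between 1 week and 1 day after psilocybin all 12 microglial markers were higher, with a median log2 fold change of 0.19, all 8 mature oligodendrocyte markers were lower (-0.16), and 8 of the 12 precursor markers were lower (-0.06). Between the same times after saline 7 of the 8 mature oligodendrocyte markers were lower as well (-0.09). There 5 of the 12 microglial markers were higher (-0.02) and 9 of the 12 precursor markers were higher (0.10). Of all genes, 48.8% were above 0 at 1 week, 54.3% between the times after psilocybin and 51.7% between the times after saline. At 1 week 4 neural progenitor and immature neuron markers were higher after psilocybin and 3 lower. DCX of that list had the smallest p of all markers in the 1 week comparison (0.39 ± 0.14). Of the 8 astrocyte markers 4 were higher and 4 lower. None of these markers passed the adjusted test in any of these comparisons. The part of these cells in the CENPF difference was not tested.

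Beyond the 52 genes, 6 lists of other cell cycle genes were followed, with 154 of 184 genes tested. None passed the adjusted test in any of the 5 comparisons of treatment or time in edgeR. The counts at an unadjusted p under 0.05 stand beside the shares of all genes given above, 1.99% at 1 week, 2.83% at 1 day, 2.02% for the change between the times, 3.18% between the times after psilocybin and 2.01% after saline. At 1 week 4 of the 154 lay higher and 2 lower after psilocybin at an unadjusted p under 0.05, with a median log2 fold change of 0.007. The 3 with the smallest p were CKAP2, a spindle protein (0.52 ± 0.19), POLA2, a subunit of the primase complex (0.43 ± 0.16), and CENPI, a centromere protein (0.44 ± 0.17). At 1 day 1 lay higher and 3 lower, led by the Cdk-binding CKS2 (-0.68 ± 0.27), ANAPC2 of the anaphase-promoting complex (0.17 ± 0.07) and the single-strand binding RPA3 (-0.55 ± 0.22). For the change between the times 3 lay higher and 0 lower, namely UBE2C, the ubiquitin-conjugating partner of the anaphase-promoting complex (1.04 ± 0.46), POLA2 (0.47 ± 0.23) and the mitotic kinesin KIF20A (0.39 ± 0.19). Between 1 week and 1 day after psilocybin 3 were higher and 2 lower, led by the Cdk inhibitor CDKN1C (-0.52 ± 0.19), the pocket protein RBL1 (0.52 ± 0.20) and the polymerase subunit POLA1 (-0.36 ± 0.15). After saline 1 was higher and 0 lower, the replication kinase CDC7 (0.26 ± 0.11), followed by POLA2 (-0.33) and GADD45A (0.31).

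Across animals, CENPF followed the MKI67 row. With group and batch means removed, Pearson's r was 0.779 and Spearman's rho 0.768 (n = 23, permutation p = 1e-05, the smallest that 100000 resamples can give, and 5e-05, adjusted p = 0.0004 and 0.002 over 40 relations). Without the 2 animals farthest from the median of the MKI67 row, r was 0.711. It was 0.783 within batch 2 and 0.78 within batch 1, and 0.725 without the 3 libraries that lay apart. CENPF was the 1 of 40 genes to pass by Pearson's r, and 6 of the 40 passed by Spearman's rho, 5 of them positive and MCM6 negative (rho = -0.556, r = -0.498, permutation adjusted p = 0.0449 and 0.0918). CENPE passed by rho alone (rho = 0.608, r = 0.453, permutation adjusted p = 0.0384 and 0.121). The next by r were MCM3 (r = 0.578, rho = 0.602, adjusted p = 0.0588 and 0.0384, permutation), the mitotic kinase PLK1 (0.568, 0.583, 0.0588 and 0.0416), GINS4 (0.55, 0.557, 0.072 and 0.0449) and cyclin E2, CCNE2 (0.531, 0.515, 0.072 and 0.0666). TOP2A, a marker of the same phase, had r = 0.321 and rho = 0.248 (adjusted p = 0.328 and 0.469, permutation), with r = 0.583 within batch 2 and -0.007 within batch 1. NUSAP1, NCAPG2 and GINS3, which lay at an unadjusted p under 0.05 at 1 week, passed by neither measure. Their r with the MKI67 row was 0.101, -0.062 and -0.092, and their rho was 0.129, -0.07 and -0.068. Over all 990 pairs among the 45 rows, the median r was 0.058, with a range of -0.741 to 0.813.

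Other members followed the markers of cell types. These relations were computed after the data were seen, 360 in all over 8 marker lists, of which 16 passed by r. CDC20 followed the mean of 8 mature oligodendrocyte markers with r = 0.92 and rho = 0.812 (permutation p = 1e-05 and 2e-05, adjusted p = 0.0024 and 0.0036), and with r = 0.859 without the 2 farthest animals. ELOVL1, whose exons it shares, followed the same markers with r = 0.893. NUSAP1 followed 8 astrocyte markers with r = 0.785 and rho = 0.708 (permutation p = 2e-05 and 0.0003, adjusted p = 0.0024 and 0.027), with 0.769 within batch 2 and 0.782 within batch 1. RFC4 ran against 12 oligodendrocyte precursor markers, with r = -0.791 and rho = -0.85 (permutation p = 2e-05 and 1e-05, adjusted p = 0.0024 and 0.0036), and SMC4, a condensin core subunit, ran against 8 neuronal markers with r = -0.702 and rho = -0.787 (permutation p = 0.0002 and 5e-05, adjusted p = 0.012 and 0.006).

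CENPF and the MKI67 row did not pass with any of the 8 lists. Their r with the oligodendrocyte precursor markers was 0.437 and 0.414 (rho = 0.354 and 0.397, permutation adjusted p of r = 0.271 and 0.307). The endothelial and mural list gave 6 relations past the threshold by r, all negative, for the PCNA row, CDK4, RFC4, GINS3, CDK2 and RFC3, with r between -0.74 and -0.621, and none of the 6 passed by rho. Without the 3 libraries that lay apart the value was -0.451 for GINS3 and lay between -0.261 and 0.151 for the other 5, so those 5 relations rest on these libraries.

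**Figure D4:**
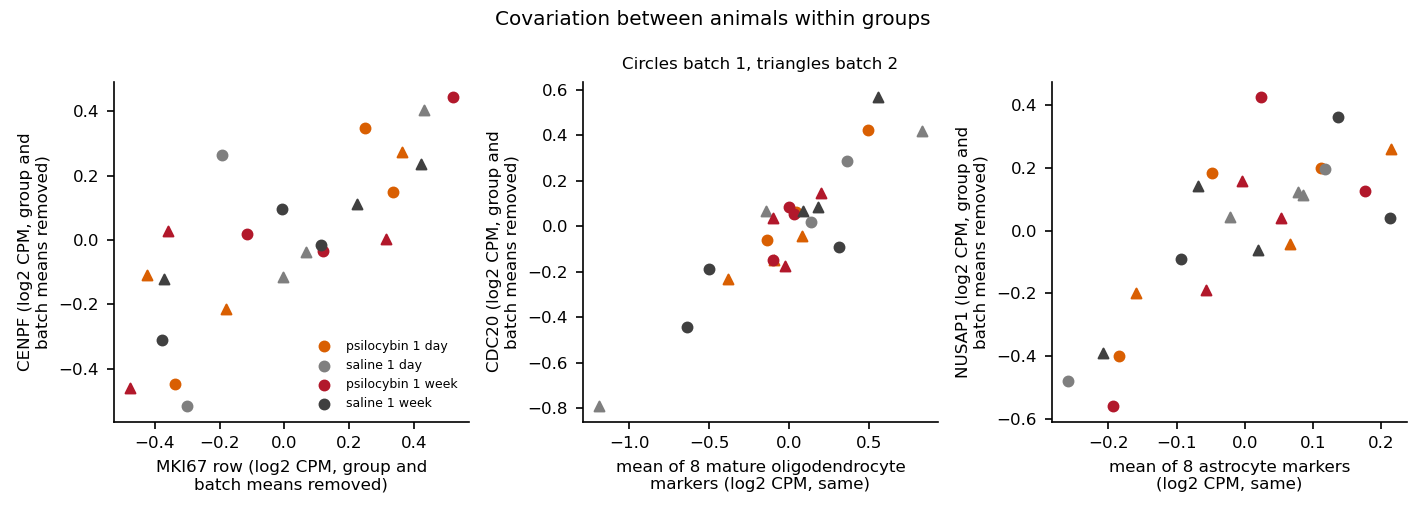
Each point is 1 of 23 animals, with group and batch means removed, in log2 CPM: CENPF against the MKI67 row, CDC20 against the mean of 8 mature oligodendrocyte markers and NUSAP1 against the mean of 8 astrocyte markers. Pearson's r is 0.779, 0.92 and 0.785 in the 3 panels; CDC20 shares 80.6% of its exon bases with ELOVL1.

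The batches differed in some of these genes, and more of them passed the test than for treatment or time. 8 of the 40 (20%) passed an adjusted p of 0.05 between batch 2 and batch 1 in edgeR, against 32.9% of all genes. 2 of the 40 were higher in batch 2 (16.1% of all genes) and 6 were lower (16.8%). NUSAP1 rose by 0.69 ± 0.11 on the log2 scale (adjusted p = 0.000188) and CENPF by 0.40 ± 0.15 (adjusted p = 0.0429) in batch 2. RFC4 fell by 0.42, NCAPD2, a condensin I subunit, fell by 0.49 and CDC45, the helicase cofactor, fell by 0.37 in batch 2 (adjusted p = 0.00182, 0.00287 and 0.0289). CCND2 fell by 0.18, MCM7 fell by 0.19 and SMC4 fell by 0.20 (adjusted p = 0.00618, 0.0104 and 0.0409). 3 of the 8 calls were lost in a share of the 29 alternatives, SMC4 in 17, CENPF in 14 (DESeq2 among them, adjusted p = 0.055) and CDC45 in 11, SMC4 and CDC45 among others without the 3 libraries that lay apart (0.0548 and 0.0981). Cell type markers differed between the batches as well. Past the same threshold, 11 of 12 microglial markers were lower in batch 2. Of 12 oligodendrocyte precursor markers 5 were higher and 1 lower, and of 8 astrocyte markers 4 were higher and 1 lower. The part of cell types in the batch differences of the members was not tested.

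**Figure D5:**
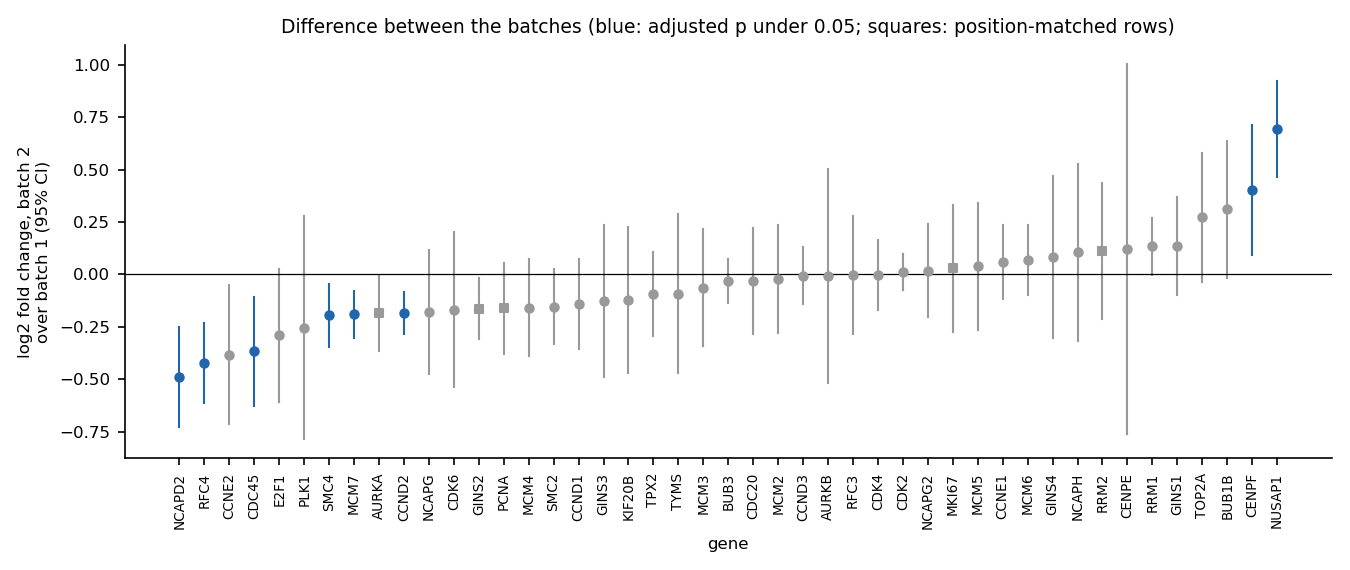
Log2 fold change between batch 2 and batch 1 with 95% confidence interval for 40 tested genes (circles) and 5 rows matched by position (squares), in order of size; blue marks an adjusted p under 0.05. NUSAP1 at 0.69 and CENPF at 0.40 are the 2 blue points above 0, and 6 blue points lie below 0.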

How the data were processed

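RNA from the prefrontal cortex of 23 pigs was sequenced after poly-A selection, per the labels' protocols. The submitters' processing notes name fastp 0.20.0, STAR 2.6c and featureCounts 1.5.1 on build susScr11 (Sscrofa11.1), and per the file headers reads were counted without strand and split over overlapping genes, so the values the authors deposited are estimated counts (72.2% were whole numbers). They were rounded, which changed a library total by at most 0.00127%. Genes were filtered with filterByExpr (minimum count 10, total 15), scaled by TMM and tested with edgeR 4.0.16 (quasi-likelihood, robust) in R 4.3.3 over 15049 genes, in 1 model of 4 groups plus batch, with Benjamini-Hochberg adjustment at 0.05. limma 3.58.1 (voom) and DESeq2 1.42.0 were alternatives. CPM and RPKM were computed with the TMM-scaled totals of the tested genes, RPKM also with the exon lengths of the deposited table. Correlations used log2 CPM (prior count 2) after removal of group and batch means, with 100000 permutations; permuting such residuals is approximate.

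Symbols came from the Ensembl gene name table, and the 5 rows matched by position from RefSeq coordinates of the same assembly. The members and all lists were chosen with earlier results of these data known. Genes named were, per comparison, members with unadjusted p under 0.05 (at least the 3 smallest), the 10 highest and 3 lowest by RPKM, those called between batches, the usual markers, those failing the filter, and the 3 pathway genes of smallest p. Each library is 1 animal; replicates share no number across groups. The scripts were tested on simulated data. Intervals and p-values cover the spread between these animals. Promoter motifs were not analysed here, as no sequence was used.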

Additional observations from a re-analysis of the deposited data

Results flagged for a closer look

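In each of the 4 groups, the highest and the lowest animal of each of the 40 tested genes was compared with the rest by Dixon's test at its 95% critical value. Of 160 such gene and group pairs 9 were past it. The nominal rate of the test, about 1 in 20 or 8 of 160, holds for normally distributed values. The CPM used were not log-transformed and kept the batch differences, so the 9 cannot be judged against that rate. All 9 were high values, in 7 animals and 8 genes.

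CENPE was high in 1 psilocybin 1 day animal (7.54 CPM, next 2.13 CPM) and in 1 psilocybin 1 week animal (8.77 CPM, next 1.76 CPM). NCAPH was high in that same psilocybin 1 week animal (2.55 CPM, next 1.5 CPM). In the psilocybin 1 day group, CDC45 (132 CPM, next 89.4 CPM), GINS1 (8.63 CPM, next 5.35 CPM) and PLK1 (3.17 CPM, next 1.39 CPM) were each high in a different animal. In saline 1 day, NCAPD2 was high in 1 animal (12 CPM, next 7.9 CPM). In saline 1 week, CDK4 (72 CPM, next 51.4 CPM) and E2F1 (3.12 CPM, next 2.24 CPM) were high in the same animal, which is 1 of the 3 libraries that lay apart on the first principal component.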

How the results depend on the processing

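No paired analysis was possible because each animal number occurs in 1 group alone. At 1 day, at 1 week and for the change between the times, 0 members and 0 genes passed under every alternative run: another scaling (RLE), no filter, a filter of 10 counts in 5 libraries, DESeq2, limma-voom, no batch term, each batch alone, the compared groups alone (not for the change between the times), each animal left out in turn, and without the 3 libraries that lay apart. Between 1 week and 1 day after psilocybin DESeq2 called 1 gene, the member CENPF, and leaving out animals gave 0 to 1 members and 0 to 1 genes. After saline DESeq2 called 1 gene that is no member, and leaving out animals gave 0 to 1 genes. Between batches the main count of 8 members became 5 without the filter, and 5 to 9 when animals were left out, with 3850 to 5647 genes. The count of members following the MKI67 row, 1 in the main setting, was 3 without the 3 libraries that lay apart and 1 to 5 when animals were left out. The count of members at an unadjusted p under 0.05 ran, with single animals left out, from 0 to 4 at 1 day, 3 to 6 at 1 week, 1 to 2 for the change between the times, 1 to 5 between the times after psilocybin and 1 to 3 after saline. The CENPE log2 fold change at 1 week turned to -0.123 in batch 2 alone. The CENPF value at 1 week ran from 0.492 to 0.955 and that between the times after psilocybin from 1.063 to 1.326 over 33 alternatives. The cause of these shifts was not tested. Promoter motifs, planned, were not run. Genes with few counts, CENPF with 7 to 41 a library, limit what this depth can show.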
